A study of Mus musculus with 12 samples.

Results

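Regulators of G protein signaling (RGS) were followed in female germline stem cells (FGSCs) of the mouse as 9 *Rgs* genes and *Rgs7bp*, the gene of a protein that binds the R7 class of RGS proteins. These 10 genes were chosen by name and RefSeq identifier, with their levels and changes in these libraries already known, out of 24809 genes with a symbol in the table, and they account for 21 of its 41388 transcripts. The values below therefore describe these genes and support nothing about RGS genes as a class. Because the members were picked with all 4 groups in view, the adjusted p-values from the fit over all transcripts are given as each transcript's standing in that table and not as independent tests.

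The cells were C57BL/6 FGSC cultures at more than 20 passages, purified with beads carrying an MVH antibody and grown on STO feeder cells made unable to divide with mitomycin C. KO cells were 1 randomly selected clone with both copies of *Stella* (*Dppa3*) disrupted by CRISPR/Cas9 after lentiviral delivery of the guides, and KO-con was the control of that knockout, whose vector and clonal history are not given in the sources used here. Over cells carried *Stella* on a lentivirus and were selected with puromycin, and Over-con cells carried the empty lentivirus. Each group had 3 RNA-seq libraries, and since separate cultures are not stated, p-values measure the spread between these libraries, which may be technical.

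A ligand-bound receptor makes a G alpha subunit exchange GDP for GTP, and the subunit signals until it hydrolyses the GTP. RGS proteins speed up that hydrolysis and so shorten the signal, and the family is divided by sequence into R4, RZ, R7 and R12 subfamilies. Several R4 members, *Rgs1*, *Rgs13* and *Rgs18* among them, are known from blood cells, where they limit chemokine and platelet receptor responses, whereas the R7 proteins and their partners are known mainly from neurons.

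Library totals lay between 5611846 and 12866545 counts. *Dppa3* was at 30.3 ± 1.85 CPM (counts scaled to library size; SD, n = 3) in Over and listed at 0 counts in the 9 libraries of the other groups, so its level checks the Over label but cannot check the KO label. With 1 listed transcript, this gene is free of the limit on genes with several that is set out in the next paragraph. Neither control thus held *Dppa3* reads that a knockout could lower, whereas the authors found *Stella* RNA by RT-PCR and its protein by immunofluorescence in FGSCs. The authors verified the knockout itself outside these libraries, by PCR of genomic DNA, RT-PCR, Sanger sequencing and Western blot. Of 12 germ cell markers 4 reached a mean of 1 CPM, namely *Ifitm3*, *Dppa3*, *Dnd1* and *Sycp3*, and *Dppa3* did so through the Over libraries alone. Of the 4 tested in each line, *Prdm1* was called lower in KO, and in Over *Dppa3* was called higher and *Ifitm3* lower (adjusted p under 0.05, edgeR). At most 3 counts in every library were listed for 7 of the 12: *Dazl*, *Ddx4*, *Figla*, *Nanos3*, *Pou5f1*, *Stra8* and *Tfap2c*. *Ddx4*, the gene of MVH, was listed at 0. *Ddx4* has 2 listed transcripts, and such genes often sit near 0 in this table, as set out in the next paragraph, so its 0 cannot be read as absence. Transcripts of leukocytes were present: 7 of 8 pan-leukocyte markers reached 1 CPM, led by *Laptm5*, with a summed level of 998 to 1371 CPM over the 12 libraries. Of 12 fibroblast markers 9 reached 1 CPM, with a sum of 1096 to 1912 CPM.

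How the reads were counted limits which members can be read. Among protein-coding genes with 1 listed transcript, 6632 of 13102 (50.6%) reached 1 CPM on average, whereas 1760 of 7540 (23.3%) did among those with 2 or more. Of the members, 6 had 1 listed transcript, namely *Rgs1*, *Rgs2*, *Rgs7bp*, *Rgs10*, *Rgs13* and *Rgs18*. *Rgs12* and *Rgs14* had 2, *Rgs3* had 4 and *Rgs19* had 7. For these 4 genes, as for any marker gene with several listed transcripts, a low or zero count cannot be told apart from reads lost between overlapping transcripts. Of the 10 members 7 passed the filter on low counts and were tested, each with 1 transcript.

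*Rgs12* had the most counts of the members, which also depend on transcript length, and the widest range between groups. It encodes a large R12 protein in which a PDZ domain, a phosphotyrosine-binding domain, Ras-binding domains and a GoLoco motif accompany the RGS domain. The gene lies on the plus strand of chromosome 5 in mm9, at chr5:35292094-35382293. Of its 41982 counts over the 12 libraries, 41978 fell on NM_173402 and 4 on NM_001163512. In the mm9 annotation 2 isoforms, Rgs12-001 with 17 exons and Rgs12-002 with 14, start 49612 bases apart, and 39.9% of the exonic bases of Rgs12-001 lie outside Rgs12-002. Which isoform the counts came from was not tested, since how reads on shared bases were assigned is not given.

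The 250 bases before a transcript start are shown for *Rgs12*, at both of its starts, and for *Rgs7bp*, because these were the members called in both lines. The sequences are those of RefSeq (GRCm38.p6), each was found once in mm9 by exact match, and each is written 5′ to 3′ on the strand of the gene with CG dinucleotides in capitals. The first *Rgs12* sequence lies at chr5:35291847-35292096 on the plus strand, the internal one at chr5:35341477-35341726 on the plus strand and that of *Rgs7bp* at chr13:105845011-105845260 on the minus strand.
Rgs12 first start: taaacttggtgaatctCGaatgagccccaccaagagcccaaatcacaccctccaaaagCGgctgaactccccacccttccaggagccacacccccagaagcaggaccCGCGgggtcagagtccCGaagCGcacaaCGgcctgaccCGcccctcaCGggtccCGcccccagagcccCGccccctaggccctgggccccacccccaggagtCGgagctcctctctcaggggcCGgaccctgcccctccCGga
Rgs12 internal start: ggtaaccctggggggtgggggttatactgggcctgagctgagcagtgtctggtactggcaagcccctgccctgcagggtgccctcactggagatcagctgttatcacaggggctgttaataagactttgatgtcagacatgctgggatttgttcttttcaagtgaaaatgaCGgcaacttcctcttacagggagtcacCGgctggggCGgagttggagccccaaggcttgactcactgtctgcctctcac
Rgs7bp start: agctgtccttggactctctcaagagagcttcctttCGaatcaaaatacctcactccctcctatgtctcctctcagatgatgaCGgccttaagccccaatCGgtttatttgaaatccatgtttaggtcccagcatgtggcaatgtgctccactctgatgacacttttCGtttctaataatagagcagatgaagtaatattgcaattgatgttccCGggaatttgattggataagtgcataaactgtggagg
The first start of *Rgs12* had 14 CG dinucleotides, the internal start 3 and *Rgs7bp* 5. Among all 32851 RefSeq promoters the median was 6, and 29.4%, 71.0% and 55.6% of them held at least as many. A GC box (GGGCGG on either strand, in 32.7% of promoters) occurred before both *Rgs12* starts. An ETS motif (GAGGAAG, 10.6%) and an AP-1 motif (TGACTCA, 4.46%) occurred before the internal start. The *Rgs7bp* sequence held none of these letters. It also held no GATA motif (AGATAA, in 9.99% of promoters), no cAMP response element (TGACGTCA, in 1.55%) and no TATA box (TATAAA, in 12.4%). The letters searched were chosen after the data were seen, and a match is a description of the sequence. The sequences before *Rgs2* and *Rgs10*, described further on, held 30 and 27 CG dinucleotides and a GC box each, and that before *Rgs13* held 0 and a GATA motif.

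The level of *Rgs12* in the 3 KO libraries was 839.5, 872.9 and 791.1 CPM. The KO-con libraries held 335.9, 328.1 and 362.3 CPM. The Over libraries held 128.3, 130.9 and 126.6 CPM, and the Over-con libraries 70.1, 67.8 and 63.7 CPM. The 4 groups did not overlap and fell in the order KO, KO-con, Over, Over-con, with means of 834.5 ± 41.1, 342.1 ± 17.9, 128.6 ± 2.19 and 67.2 ± 3.27 CPM (SD, n = 3 each). Each step of that order was wider than the spread between replicates on either side of it. In log2 CPM the group means spanned 3.62, the fourth widest span (rank 4) of 5846 transcripts with a mean of at least 10 CPM.

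*Rgs12* was thus higher in each modified line than in the control of that line. The log2 fold change was 1.29 (SE 0.07, 2.45-fold, adjusted p = 7.17e-09, edgeR quasi-likelihood test with Benjamini-Hochberg adjustment) in KO against KO-con and 0.95 (SE 0.07, 1.93-fold, adjusted p = 2.03e-06) in Over against Over-con. The control lines differed more than either: KO-con exceeded Over-con by 2.36 (SE 0.08, 5.12-fold, adjusted p = 3.62e-14). Against the other control the KO change was 3.64, and the Over change turned to -1.41 (adjusted p = 2.77e-16), so the direction in Over depends on the control used. In bulk RNA, more cells that express the gene and more RNA per cell cannot be told apart, for *Rgs12* as for the genes that follow. Of the 7 tested pan-leukocyte markers 0 were called by edgeR in KO or in Over, with 3 and 1 at an unadjusted p under 0.05 and 0 and 1 called by DESeq2. Mast cell markers, of which 4 of 6 tested were called higher in KO, had a summed level of 1250 to 1312 CPM in the KO libraries, 430 to 496 in their controls, 761 to 782 in the Over libraries and 867 to 980 in theirs. That sum was mostly *Cpa3*, the carboxypeptidase of mast cell granules, which was higher in KO by a log2 fold change of 1.55 (adjusted p = 2.62e-09) and lower in Over by -0.30 (adjusted p = 0.0247). In Over *Cpa3* was the 1 called of 4 tested mast cell markers. The others, *Hdc* (0.82), *Gata2* (0.63) and *Slc18a2* (0.13), lay above 0 there without a call. Of the 12 mast cell markers 6 had at most 3 counts in every library: *Fcer1a*, *Kit*, *Mcpt4*, *Ms4a2*, *Tpsab1* and *Tpsb2*. Among the defining genes *Kit*, *Fcer1a* and *Ms4a2*, *Kit* and *Ms4a2* have several listed transcripts, so that of these 3 only the low count of *Fcer1a* is free of that limit. Of 10 macrophage markers 2 reached 1 CPM, and *Cd68*, a lysosomal protein gene, was higher in KO (log2 fold change 0.48, adjusted p = 0.0158) and in Over (0.51, adjusted p = 0.00645) like *Rgs12*, but was not called between the controls. *Adgre1*, *C1qa*, *C1qb* and *Itgam*, defining macrophage genes, were listed at 0 (*Adgre1* and *Itgam* with several listed transcripts). The summed macrophage level was 39.4 to 47.3 CPM in KO, 27.6 to 34.8 in KO-con, 42.1 to 43.2 in Over and 29.8 to 33.4 in Over-con. That sum was mostly *Cd68* itself, at means of 39.4, 28.5, 40.9 and 28.7 CPM in these groups, and so adds little to the values of that gene. Of 9 tested fibroblast markers 1 was called higher and 2 lower in KO, with 4 at an unadjusted p under 0.05 and 3 called by DESeq2. In Over 1 was called lower, with 7 at an unadjusted p under 0.05 and 2 called by DESeq2, and the median log2 fold change of the 9 was -0.24. The part of any other cell type in the *Rgs12* levels was not tested.

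**Figure D1:**
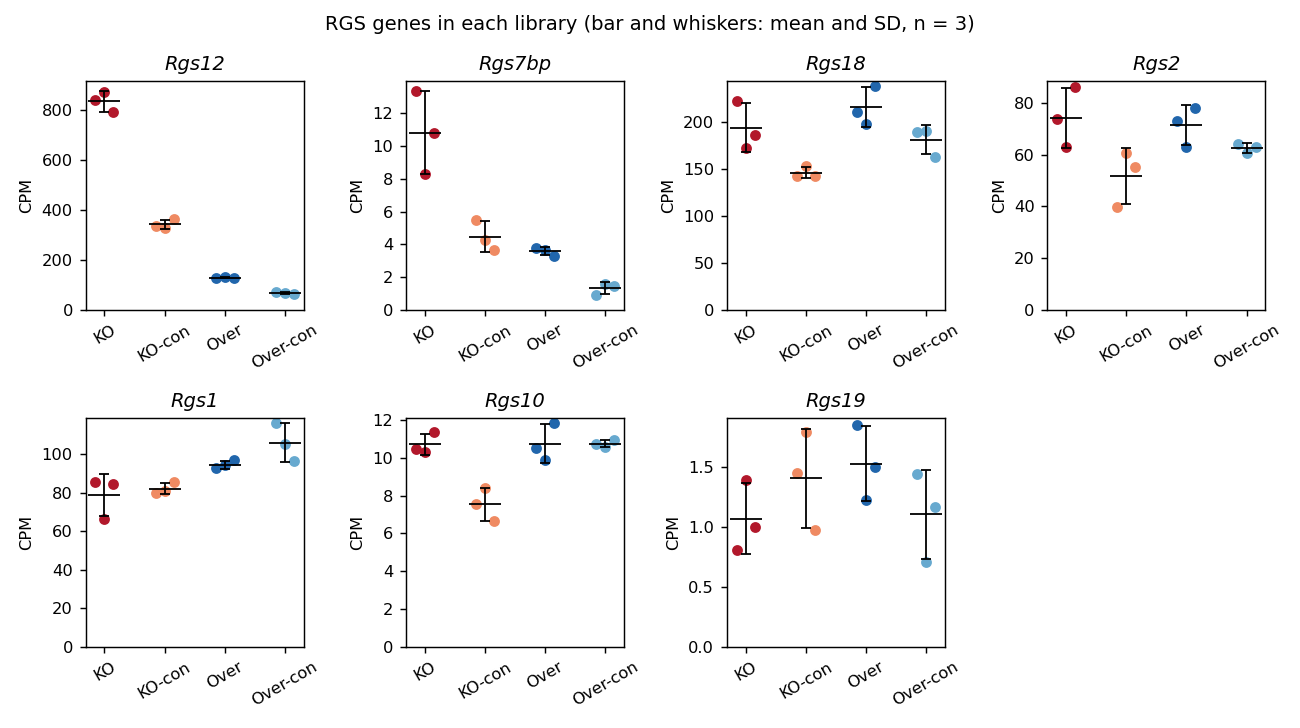
CPM of the 7 tested RGS genes in each library, 1 panel per gene with its own linear axis from 0, points for libraries and bars with whiskers for the mean and SD (n = 3). *Rgs12* falls in 4 separate steps from 834.5 to 67.2 CPM, *Rgs7bp* is highest in KO and lowest in Over-con, and the *Rgs1* and *Rgs19* groups of each line overlap those of its control.

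*Rgs7bp* followed the same order of group means with far fewer counts. Its product holds R7 proteins at the membrane through a palmitoylated end. The gene lies on the minus strand at chr13:105737233-105845010. The KO libraries held 116, 96 and 119 counts, or 13.4, 8.33 and 10.8 CPM. The KO-con libraries held 53, 48 and 30 counts, the Over libraries 41, 48 and 31, and the Over-con libraries 9, 9 and 15. Every KO library lay above every KO-con library and every Over library above every Over-con library, whereas the KO-con and Over libraries overlapped. The means were 10.8 ± 2.52 CPM in KO and 4.47 ± 0.936 CPM in its control, and 3.59 ± 0.250 CPM in Over and 1.32 ± 0.351 CPM in its control (SD, n = 3).

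On the log2 scale *Rgs7bp* was higher by 1.26 in KO (SE 0.21, adjusted p = 0.000995, edgeR). It was higher by 1.48 in Over (SE 0.29, adjusted p = 0.0170), and KO-con exceeded Over-con by 1.80 (SE 0.31, adjusted p = 0.000326). The call in Over is weak: it was lost without Over replicate 1, 2 or 3 or Over-con replicate 1, with log2 fold changes of 1.45, 1.46, 1.54 and 1.26. Against the other control the Over change was -0.31 (adjusted p = 0.359). The genes of the R7 proteins that this partner serves gave few reads apart from 1: *Rgs6* and *Rgs7* were listed at 0 with several transcripts each, *Rgs9* had 19 counts in all 12 libraries, and *Rgs11*, with 345 to 862 counts per library, was the R7 gene with most reads. *Rgs11* did not pass the threshold in KO (log2 fold change 0.15, adjusted p = 0.343) or in Over (0.10, adjusted p = 0.689) and was lower in KO-con than in Over-con (-0.32, adjusted p = 0.0401). *Rgs9bp*, the other R7 anchor, was not called in any of the 3 comparisons.

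In KO against KO-con 5 of the 7 tested members were called at an adjusted p under 0.05, all of them higher, where 11.8% of the 9457 transcripts tested were called and 5.83% were called higher. The groups did not overlap for the same 5 members, as for 30.5% of all transcripts. Their median log2 fold change over the 7 was 0.51, against 0.01 over all transcripts. With an absolute log2 fold change over 1 in addition, 2 members were called, *Rgs12* and *Rgs7bp*, where 1.7% of all transcripts were. In Over against Over-con 2 members were called, both higher, where 1.65% of 9401 transcripts were called and 0.766% were called higher. The groups did not overlap for 3 members, as for 19.1% of transcripts, and the median log2 fold change was 0.26, against -0.00 over all. *Rgs7bp* was the member past the added fold change threshold in Over, as were 0.17% of transcripts. Since the members were picked with these values known, nothing is read from these shares.

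**Figure D2:**
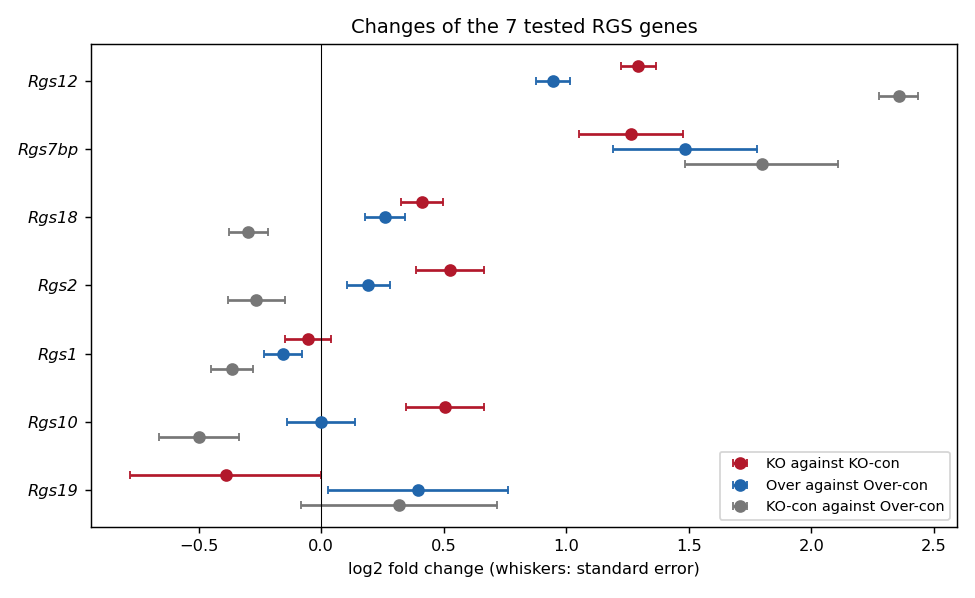
Log2 fold change of the 7 tested RGS genes with its standard error in KO and in Over, each against its own control, and between the 2 controls. *Rgs12* and *Rgs7bp* lie right of 0 in all 3 comparisons, while *Rgs18*, *Rgs2* and *Rgs10* lie right of 0 in KO and left of 0 between the controls.

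Of the R4 genes, *Rgs18*, known as a brake on platelet and megakaryocyte receptors, had the most counts (21895 over 12 libraries). It held 222.3, 172.1 and 185.7 CPM in KO and 142.1, 152.8 and 142.6 CPM in KO-con, with no overlap. It held 210.6, 197.2 and 238.1 CPM in Over and 188.5, 190.4 and 162.8 CPM in Over-con, again with no overlap but with a gap of only a few CPM. The log2 fold change was 0.41 (SE 0.09, adjusted p = 0.00534) in KO, where it was called, and 0.26 (SE 0.08, adjusted p = 0.144) in Over, where it was not. KO-con lay below Over-con by a log2 difference of -0.30 (SE 0.08, adjusted p = 0.0129), and against Over-con the KO change of *Rgs18* was 0.10 (adjusted p = 0.675). Against the other control the Over change was 0.56 (adjusted p = 2.04e-07).

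*Rgs2*, an immediate-early R4 gene that acts chiefly on the Gq class, showed wider scatter. Its KO libraries held 73.9, 62.9 and 86.1 CPM and its KO-con libraries 39.6, 60.5 and 55.3 CPM. The groups did not overlap, although the lowest KO library lay close to the highest KO-con library. The log2 fold change was 0.53 (SE 0.14, adjusted p = 0.0204) in KO, and the call was lost without KO replicate 3 (0.40) or without KO-con replicate 1 (0.36). Against the other control the KO change of *Rgs2* was 0.25 (adjusted p = 0.233). In Over the libraries held 73.1, 62.9 and 78.1 CPM and in Over-con 64.1, 60.6 and 63.0 CPM. These overlapped, with a log2 fold change of 0.19 (SE 0.09, adjusted p = 0.367). Against the other control the Over change of *Rgs2* was 0.46 (adjusted p = 0.00212, edgeR), a call.

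*Rgs1*, an R4 gene of lymphocytes and other leukocytes that dampens chemokine receptors, did not pass the threshold in either modified line against its own control. Means were 78.8 ± 11.0 CPM in KO against 82.1 ± 2.87 CPM in KO-con, and 94.7 ± 2.09 CPM in Over against 106.1 ± 10.1 CPM in Over-con (SD, n = 3). The log2 fold change was -0.05 (SE 0.10, adjusted p = 0.788) in KO and -0.16 (SE 0.08, adjusted p = 0.407) in Over, and the groups overlapped in both. Without Over-con replicate 3 it was called lower in Over (-0.23, adjusted p = 0.0417), and against the other control it was called lower in KO (-0.43, adjusted p = 0.0276) and higher in Over (0.21, adjusted p = 0.0151). Between the controls *Rgs1* was lower in KO-con by -0.36 (SE 0.09, adjusted p = 0.00503). The lymphocyte markers gave no level to set beside it, since 0 of 8 reached 1 CPM and their sum stayed at or below 0.833 CPM in every library.

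*Rgs10*, a short R12 protein abundant in microglia and other leukocytes, was the member nearest to the threshold. Its KO libraries held 10.5, 10.3 and 11.4 CPM, its KO-con libraries 7.55, 8.41 and 6.67 CPM, its Over libraries 10.6, 9.88 and 11.9 CPM and its Over-con libraries 10.8, 10.6 and 11.0 CPM. KO-con was thus the group apart, and the other 3 groups overlapped. The log2 fold change in KO was 0.51 (SE 0.16, adjusted p = 0.0498). That call was lost in 10 of 14 alternatives against the same control, among them the removal of any 1 of the 6 libraries, and against Over-con the KO value was -0.01. In Over it was -0.00 (SE 0.14, adjusted p = 0.997). KO-con lay below Over-con by -0.50 (SE 0.16, adjusted p = 0.0417), a call that was lost in 8 of 14 alternatives, among them DESeq2 (adjusted p = 0.137) and the removal of any 1 library.

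The remaining members gave few or no reads. *Rgs19*, an RZ member that binds the Gi class, had 4 to 20 counts per library on 1 of its 7 transcripts. Its means were 1.06 ± 0.296 CPM in KO and 1.40 ± 0.412 CPM in its control, then 1.52 ± 0.314 CPM in Over and 1.10 ± 0.369 CPM in its control, with overlap in both lines. It was called in no comparison. *Rgs13*, an R4 gene known from mast and germinal centre cells, had 1 count in the 12 libraries, in Over-con replicate 3, and as it has 1 listed transcript the loss between isoforms does not apply to it. *Rgs14*, an R12 gene, had 2 counts, both in KO replicate 3, and *Rgs3*, an R4 gene, had 0. At the depth of these libraries a count of 0 allows up to 3 counts, and this limit covers counting error only. No change of *Rgs3*, *Rgs13* or *Rgs14* was detectable.

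**Figure D3:**
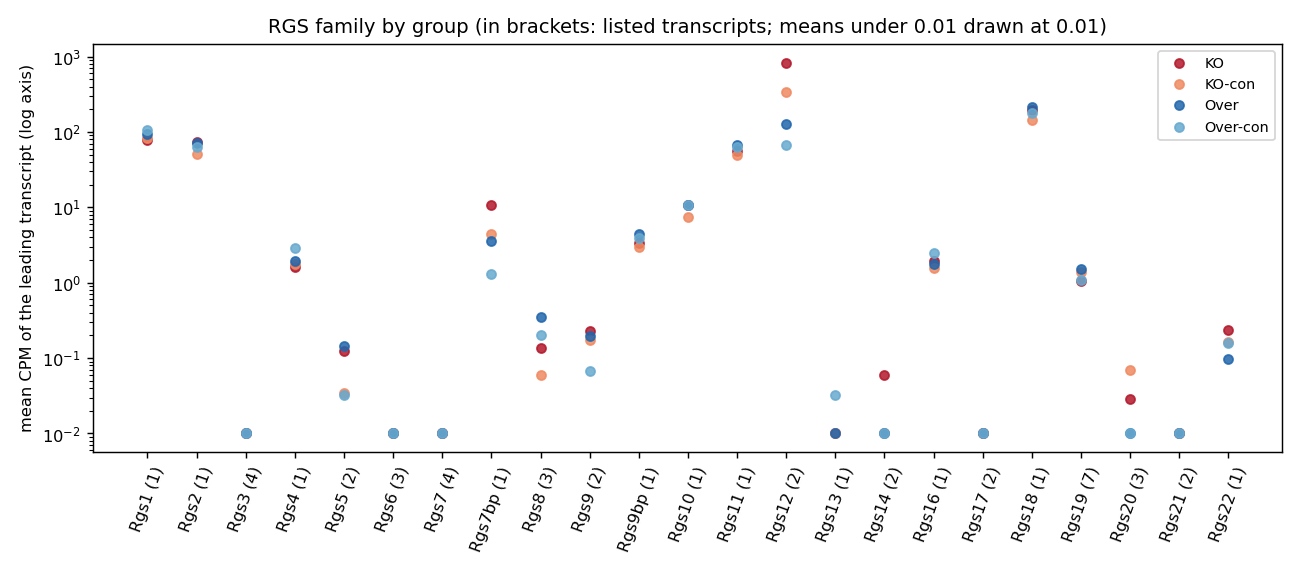
Mean CPM of the leading transcript of each of the 23 RGS-named genes per group (n = 3) on a log axis, with the number of listed transcripts in brackets and means under 0.01 drawn at 0.01. *Rgs12* and *Rgs7bp* show wide gaps between groups, *Rgs18*, *Rgs1*, *Rgs2* and *Rgs11* lie within narrow bands, and genes with several listed transcripts fill much of the floor.

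Levels can be compared between genes only per length, here per kilobase of the longest coding transcript in the annotation and for genes with 1 listed transcript. On the scale of CPM per kb, averaged over the 12 libraries, *Rgs18* was highest at 90.5, followed by *Rgs1* at 61.8. *Rgs11*, which is no member, stood at 29.2, *Rgs2* at 21.5, *Rgs10* at 11.3 and *Rgs7bp* at 0.867. In KO the level of *Rgs7bp* was 1.86 CPM per kb, and *Rgs10*, next above it in that order, stood at 12.2, so that *Rgs7bp* stayed the lowest of these members in every group. *Rgs12*, with 2 transcripts, has no place in this order.

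Between the control lines 5 of the 7 tested members were called, 2 higher in KO-con (*Rgs12* and *Rgs7bp*) and 3 lower (*Rgs1*, *Rgs10* and *Rgs18*), where 16.3% of 9321 transcripts were called. The calls of *Rgs10* and *Rgs18* were lost in 8 and 3 of 14 alternatives. Marker genes moved in the same comparison. Called lower in KO-con were 4 of 7 tested pan-leukocyte markers (*Laptm5*, *Ptprc*, *Tyrobp* and *Lcp1*) and 5 of 9 fibroblast markers. Of 5 tested mast cell markers 2, *Cpa3* and *Slc18a2*, were called lower in KO-con. The others, *Mitf* (0.36), *Gata2* (0.25) and *Hdc* (0.06), lay above 0 without a call. Summed pan-leukocyte levels were 998 to 1119 CPM in KO-con and 1255 to 1371 in Over-con, and summed fibroblast levels 1215 to 1417 and 1729 to 1912 CPM. The part of these cell types in the member calls was not tested. For *Rgs18* and *Rgs10* the KO level therefore came near the level of both Over groups, and KO-con was the lowest of the 4. The KO and control comparisons share the KO-con libraries, so their values are given side by side and not set against each other. Group means of *Rgs18*, *Rgs2* and *Rgs10* were 145.8 ± 6.00, 51.8 ± 10.9 and 7.54 ± 0.874 CPM in KO-con and 180.6 ± 15.4, 62.5 ± 1.80 and 10.8 ± 0.202 CPM in Over-con.

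Whether the KO effect differed from the Over effect was tested in 1 fit of all 12 libraries, in which 8.64% of 9903 transcripts were called. An effect here is the change of a modified line against its own control. As KO was 1 clone, the change of *Stella* and other differences between the lines cannot be told apart in it. Of the members 1 was called: the KO effect on *Rgs12* exceeded the Over effect by 0.35 on the log2 scale (SE 0.09, adjusted p = 0.0240). That call was lost in 7 of the 12 fits that left out 1 library. For *Rgs10* the difference was 0.51 (SE 0.20, adjusted p = 0.125), for *Rgs2* 0.33 (SE 0.18, adjusted p = 0.295), for *Rgs18* 0.15 (SE 0.13, adjusted p = 0.553) and for *Rgs7bp* -0.22 (SE 0.36, adjusted p = 0.791). With 3 libraries a group these errors leave room for differences in either direction for *Rgs2*, *Rgs18* and *Rgs7bp*.

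*Rgs2*, *Rgs13*, *Rgs1*, *Rgs21* and *Rgs18* lie side by side on the minus strand of chromosome 1 in mm9, the 5 protein-coding genes of a stretch whose first and last starts are 771 kb apart. *Rgs2* lies at chr1:145846468-145851291, *Rgs1* at chr1:146091102-146096372 and *Rgs18* at chr1:146599813-146622565. Reads alternated along the stretch, with 7791 counts for *Rgs2*, 1 for *Rgs13*, 10693 for *Rgs1*, 0 for *Rgs21* and 21895 for *Rgs18* over the 12 libraries. In KO *Rgs2* and *Rgs18* were called higher and *Rgs1* between them was not called, and whether their changes differ from each other was not tested. *Rgs21*, which is no member, has 2 listed transcripts.

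**Figure D4:**
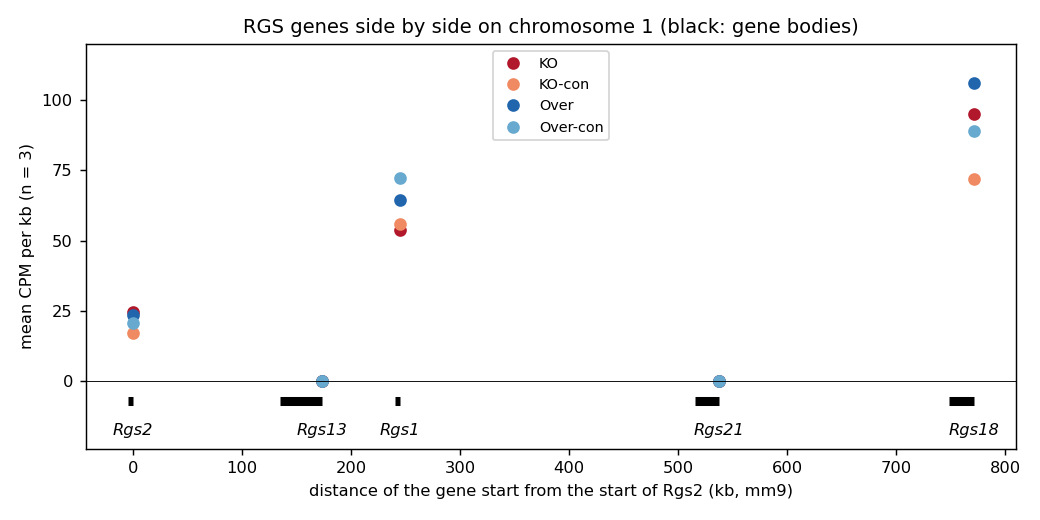
Mean CPM per kb of transcript (n = 3) of the 5 RGS genes of chromosome 1 against the distance of each gene start from the start of *Rgs2* in kb, with gene bodies as black bars. Levels per kb rise from 21.5 for *Rgs2* over 61.8 for *Rgs1* to 90.5 for *Rgs18* on average, and *Rgs13* and *Rgs21* lie near 0 between them.

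Of the 4 protein-coding genes on each side of *Rgs12*, 5 in all were tested in KO, and 1 was called higher and 1 lower. *Htt*, the huntingtin gene 36911 bases before it, had a log2 fold change of -0.08 in KO (adjusted p = 0.522) and, in Over, of 0.03 (adjusted p = 0.896). *Hgfac*, a serine protease gene 1909 bases after it, was higher in KO by 0.74 (adjusted p = 0.00731) but stood at 0.02 in Over (adjusted p = 0.967) and lay lower in KO-con than in Over-con by -0.90 (adjusted p = 0.000604), where *Rgs12* lay higher. *Nop14*, 289297 bases before it, was lower in KO (-0.32, adjusted p = 0.00464), with 0.05 in Over (adjusted p = 0.781), and was higher in KO-con than in Over-con (0.55, adjusted p = 1.28e-05), as *Rgs12* was. *Lrpap1*, 51846 bases after it, and *Grk4*, 194140 bases before it, were not called in any of the 3 comparisons. These neighbours were looked at after the values of *Rgs12* were known.

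**Figure D5:**
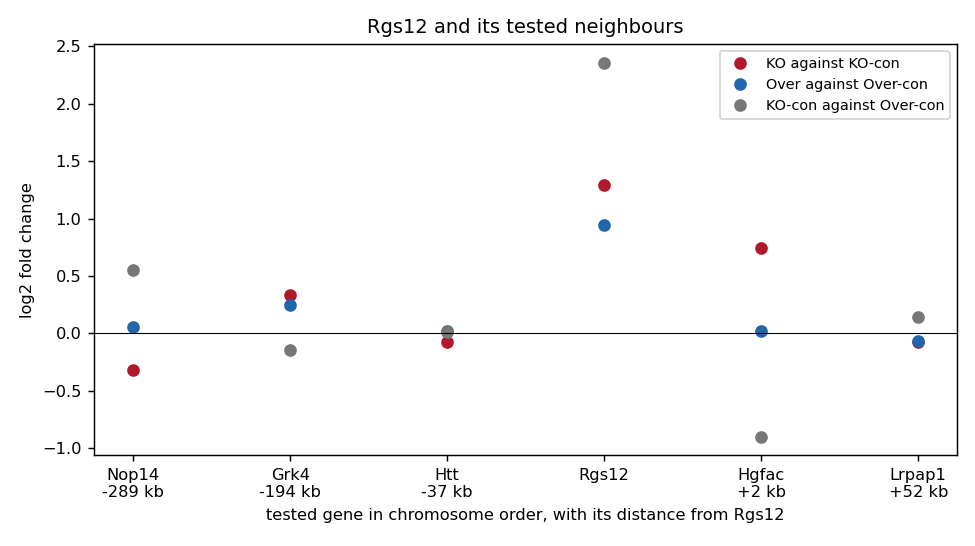
Log2 fold change of *Rgs12* and its tested neighbours in chromosome order, with the distance of each from *Rgs12* in kb, in the 3 comparisons. *Rgs12* lies above its neighbours in all 3, and *Hgfac*, 2 kb after it, lies above 0 in KO and below 0 between the controls.

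The transcripts whose 4 group means lay nearest to those of *Rgs12*, among 5846 with a mean of at least 10 CPM, were *She*, *Mir99ahg* and *D430019H16Rik*. The root mean square differences of their centred log2 means over the 4 groups were 0.612, 0.659 and 0.820, so that none came close, and their ranges of 1.91, 1.90 and 1.64 log2 units were narrower than that of *Rgs12*. *Rgs18* lay near *Top2a* (0.0163), *Tmem97* (0.0206) and *Stmn1* (0.0293). The transcript nearest to *Rgs2* was that of *Incenp* (0.0263). With 4 points per profile such nearness is a description.

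G alpha subunits are the direct targets of RGS proteins. Of 13 G alpha genes 9 were tested, and 0 were called in KO or in Over by edgeR or by DESeq2, with 1 and 0 at an unadjusted p under 0.05. *Gnaq*, a Gq gene, had a log2 fold change of 0.24 (adjusted p = 0.117) in KO, with -0.18 (adjusted p = 0.403) in Over. *Gnai2*, a Gi gene of leukocytes, had 0.12 (adjusted p = 0.371) and -0.08 (adjusted p = 0.602), and was lower in KO-con than in Over-con (-0.23, adjusted p = 0.0262). Of 14 G beta and gamma genes 6 were tested in KO and 7 in Over, with 0 called by either tool and 1 and 0 at an unadjusted p under 0.05. The 2 tested effector genes (of 13), the 2 tested receptor kinase and arrestin genes (of 7) and the 4 tested exchange factor and GoLoco genes (of 7) gave 0 calls in both lines by either tool. In KO 0, 0 and 1 of them had an unadjusted p under 0.05, and in Over 1, 1 and 0. Between the controls the G gamma gene *Gng5* was called higher in KO-con (0.53, adjusted p = 0.000381, edgeR). *Grk5*, of the receptor kinases (-0.82, adjusted p = 0.000629), and *Gpsm2*, of the GoLoco list (-0.62, adjusted p = 0.000429), were called lower there, and the effector genes gave 0 calls. Of 10 other genes with an RGS domain 5 were tested, and *Snx13*, a sorting nexin, was higher in KO (0.28, adjusted p = 0.0337) but not called in Over (-0.08, adjusted p = 0.708). Between the controls *Snx13* was called lower in KO-con (-0.25, adjusted p = 0.0424, edgeR).

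Among 47 G protein-coupled receptor genes of blood cells 19 were tested, with 1 higher and 2 lower in KO and 1 lower in Over. At an unadjusted p under 0.05 there were 7 and 8, and DESeq2 called 3 and 2. Between the controls 9 of the 19 were called, 8 of them lower in KO-con. *S1pr2*, a sphingosine 1-phosphate receptor, was higher in KO at 64.2 ± 2.27 CPM against 44.7 ± 1.71 in KO-con (SD, n = 3; log2 fold change 0.53, adjusted p = 0.000647). *C3ar1*, the complement C3a receptor, was lower in KO at 156.7 ± 20.8 against 223.0 ± 27.3 CPM (-0.50, adjusted p = 0.00338). *Gpr34*, a lysophosphatidylserine receptor of microglia and mast cells, was lower in KO at 3.44 ± 0.662 against 6.66 ± 0.262 CPM (-0.95, adjusted p = 0.00723). *S1pr3* was lower in Over at 124.2 ± 6.63 against 180.5 ± 14.7 CPM (-0.53, adjusted p = 0.00117). Against Over-con, KO-con was lower for *S1pr2* (-0.58, adjusted p = 0.000222, edgeR) and higher for *C3ar1* (0.66, adjusted p = 0.000328). KO-con thus had the lowest group mean of *S1pr2* and the highest of *C3ar1*, and the KO and control comparisons share its libraries. *Gpr34* (-1.59, adjusted p = 1.40e-07) and *S1pr3* (-0.87, adjusted p = 1.88e-07) were lower in KO-con than in Over-con. The median log2 fold change of the 19 was 0.06 in KO and -0.18 in Over, against 0.01 and -0.00 over all transcripts.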

How the data were processed

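RNA-seq was performed by the authors on 12 libraries, 3 for each of KO, KO-con, Over and Over-con. The authors aligned reads to mm9 with HISAT2, per the labels and methods, and deposited raw counts per RefSeq transcript without normalization. The kit was stranded. The strand setting, annotation release and handling of reads shared between transcripts are not given in the sources used here.

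Members and gene lists were chosen with earlier results of these data known. Symbols were matched through RefSeq tables (41181 of 41388 transcripts). Each comparison was fitted on the whole table with edgeR 4.0.16 (TMM, filterByExpr, glmQLFit, glmQLFTest) with Benjamini-Hochberg adjustment over 9457, 9401, 9321 and 9903 transcripts, and calls at an adjusted p under 0.05. The authors used DESeq2 with an added absolute log2 fold change over 1, which was an alternative here with DESeq2 1.42.0. An exact permutation test of 3 against 3 libraries cannot give a p below 0.1 and was not used. CPM used TMM factors over all 12 libraries. Lists name at most 3 genes called in KO or Over per comparison, by adjusted p; genes outside that rule, and the neighbours of *Rgs12*, were named after their values were seen. Likeness used log2 CPM with a pseudocount of 0.5, and for *Rgs2* the other near transcripts are not reported here.

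Library totals were 5611846 to 12866545 counts (median 10221419), and libraries of 1 group differed by more than counting error (chi-square over its degrees of freedom 1.93 to 12.3 in pairs). The biological coefficient of variation was 0.0819, 0.0735, 0.0787 and 0.0780. Shared replicate numbers did not pair the libraries. Steps were tested on simulated data. Alternatives were DESeq2, its size factors, library totals, no filter, at least 10 counts, all 12 libraries in 1 fit, a replicate block, sums per gene, the other control and each library left out. Positions come from GENCODE vM1, promoters from RefSeq. Software was Python 3.11.15 with numpy 2.4.6, pandas 2.3.3 and matplotlib 3.10.9, and R 4.3.3.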

Additional observations from a re-analysis of the deposited data

Results flagged for a closer look

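In the fit of all 12 libraries the effects on *Rgs12* differed between the lines. The KO effect exceeded the Over effect by 0.35 on the log2 scale (SE 0.09, adjusted p = 0.0240, edgeR interaction contrast), with *Rgs12* higher in 3 of 3 modified libraries than in every library of the own control in both lines. The control levels from which the effects started were 342.1 CPM in KO-con and 67.2 CPM in Over-con. With KO as 1 clone, the change of *Stella* and other differences between the lines cannot be told apart in these effects. The call was lost in 7 of the 12 fits that left out 1 library, with an adjusted p of up to 0.0873 and differences of 0.30 to 0.39 over all alternatives.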

How the results depend on the processing

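Of 420 alternative values of single members, 362 kept their direction and their side of the threshold and 406 their direction. The 362 include the DESeq2 values of *Rgs19*, which had no adjusted p and were taken as not called. *Rgs12* was called in KO and in Over under all 14 alternatives that kept the own control, with log2 fold changes of 1.26 to 1.34 and 0.91 to 0.98. The 5 members called in KO became 2 with the fold change threshold and 3 to 4 without 1 library. With the other control 3 were called in KO, *Rgs12* and *Rgs7bp* higher and *Rgs1*, not among the 5, lower. The 2 called in Over became 1 with the fold change threshold, with at least 10 counts in every library (*Rgs7bp* was then not tested) and with the replicate block. They became 3 without a filter (adding *Rgs18*, adjusted p 0.0168) and 1 to 3 without 1 library (adding *Rgs1* without Over-con replicate 3). With the other control 5 were called in Over, *Rgs1*, *Rgs2*, *Rgs10* and *Rgs18* higher and *Rgs12* lower, and *Rgs7bp* was not called. The 5 called between controls became 2 with the fold change threshold and 2 to 5 without 1 library, and the 1 difference between effects became 0 to 1 without 1 library. Replicate numbers did not pair the libraries (correlations of deviations from -0.152 to 0.0568). With the block *Rgs7bp* in Over had an adjusted p of 0.0611, and *Rgs10* was not called in KO.

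Directions turned in 14 values. With the other control *Rgs12* in Over was -1.41, *Rgs7bp* in Over -0.31, *Rgs1* in Over 0.21, *Rgs10* in Over 0.50 and *Rgs10* in KO -0.0059. *Rgs1* in KO lay between -0.12 and 0.058 without 1 library. *Rgs10* in Over, near 0 throughout, was 0.0053 with DESeq2, 0.017 with library totals, 0.014 without a filter, 0.0016 with at least 10 counts, 0.0079 with the replicate block and -0.068 to 0.061 without 1 library. The cause was not tested. Counts limit *Rgs7bp* in Over-con (9 to 15 per library) and *Rgs19* most.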
